A study of Mus musculus with 6 samples.

Results

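The genes described here are Bcl6 itself and 8 of its relatives with a BTB domain and zinc fingers, Bcl6b, Zbtb20, Zbtb16, Zbtb7a, Zbtb7b, Zbtb18, Zbtb17 and Zbtb32. They were chosen by name with earlier results of these data known, and their peaks are all those that the authors' gene list ties to them. Of the 9 genes, 5 had a listed peak (Bcl6, Zbtb20, Zbtb7a, Zbtb7b and Zbtb17), and together they had 9 of the 3878 peaks. Bcl6b, Zbtb16, Zbtb18 and Zbtb32 had none. The study located Bcl6 on chromatin with ChIP-seq (immunoprecipitation of bound DNA, then sequencing) in cortical progenitors derived from A2 lox.Cre Bcl6 mouse embryonic stem cells, a single line with a tetracycline-inducible Bcl6 transgene. In every library, cyclopamine, a hedgehog pathway inhibitor, was given at 400 ng/ml between days 2 and 10, and doxycycline at 1 µg/ml induced Bcl6 for 24 h at differentiation day 12. The groups were 3 ChIP libraries made with a Bcl6 antibody and 3 input DNA libraries from cells with the same transgene and treatment. Both groups were pooled by the authors before peaks were called, to 56836596 ChIP and 12808138 input tags, so no value has a replicate error.

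BTB zinc finger proteins bind DNA through their C-terminal zinc fingers. Their N-terminal BTB domain pairs the proteins and, in Bcl6, holds the corepressors NCOR1, SMRT and BCOR. In B cells Bcl6 represses its own gene, and its DNA sites resemble those of STAT factors. In the developing cortex Bcl6 promotes the switch from progenitor to neuron, and Zbtb18 and Zbtb20 are repressors with known parts in cortical and hippocampal development. Induced and endogenous Bcl6 protein cannot be told apart here, and cells without doxycycline were not analysed here. The files hold no expression values, so the cell type is that of the labels and what the bound genes did is not measured.

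The promoter windows that carry the results are shown first, each 300 bases from 250 before to 50 after a transcription start site (TSS) of RefSeq (GRCm38.p6, the mm10 build). They are written 5′ to 3′ along the gene in lower case, with matches to the motifs TTCCTNGAA, the Bcl6 consensus, and TTCNNNGAA, the STAT-type palindrome that contains it, in capitals. Bcl6 is on the minus strand of chromosome 16 and has an upstream start, at chr16:23988803-23989102, and a downstream start inside the gene, at chr16:23981234-23981533. The first lies wholly inside a peak and the second under none. The upstream window of Zbtb7b, at chr3:89393329-89393628 on the minus strand, also lies wholly inside a peak, as does that of Zbtb22, at chr17:33915926-33916225 on the plus strand, the relative outside the 9 genes with the strongest peak.
Bcl6 upstream start: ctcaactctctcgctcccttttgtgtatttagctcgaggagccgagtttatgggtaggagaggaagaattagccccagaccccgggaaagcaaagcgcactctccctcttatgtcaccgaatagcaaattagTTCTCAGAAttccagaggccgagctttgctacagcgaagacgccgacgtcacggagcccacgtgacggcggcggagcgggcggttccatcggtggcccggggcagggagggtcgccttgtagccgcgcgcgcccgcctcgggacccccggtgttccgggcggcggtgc
Bcl6 downstream start: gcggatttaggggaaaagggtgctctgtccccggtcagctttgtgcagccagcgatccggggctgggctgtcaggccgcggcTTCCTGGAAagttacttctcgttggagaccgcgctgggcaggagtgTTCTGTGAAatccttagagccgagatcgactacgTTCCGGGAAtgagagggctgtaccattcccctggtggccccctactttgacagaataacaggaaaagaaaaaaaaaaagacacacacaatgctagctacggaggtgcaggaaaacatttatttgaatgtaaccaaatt
Zbtb7b upstream start: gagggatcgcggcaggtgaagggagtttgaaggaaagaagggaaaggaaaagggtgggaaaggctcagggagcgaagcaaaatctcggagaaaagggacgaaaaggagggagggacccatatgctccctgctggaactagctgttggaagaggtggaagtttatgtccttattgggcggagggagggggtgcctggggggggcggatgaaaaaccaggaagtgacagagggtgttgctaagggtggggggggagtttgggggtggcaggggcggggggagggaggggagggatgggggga
Zbtb22 start: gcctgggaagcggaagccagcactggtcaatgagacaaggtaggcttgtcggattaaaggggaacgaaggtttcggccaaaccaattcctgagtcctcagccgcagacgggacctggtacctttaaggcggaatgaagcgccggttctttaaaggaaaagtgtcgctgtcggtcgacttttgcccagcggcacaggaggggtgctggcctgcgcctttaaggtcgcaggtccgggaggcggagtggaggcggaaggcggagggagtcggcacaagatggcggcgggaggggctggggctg
The Bcl6 upstream window held 1 match to the palindrome, ttctcagaa, whose first base lay 118 bases before the TSS, and none to the Bcl6 consensus. The summit of the peak over it lay 219 bp downstream of the TSS, outside the window. The parts of this peak beyond the window were not searched. The downstream window held 3 matches, and 1 of these, ttcctggaa at 168 bases before its TSS, was also a match to the Bcl6 consensus. The windows of Zbtb7b and Zbtb22 held neither motif. The summit of the Zbtb7b peak lay 362 bp upstream of this start, also outside the window. The parts of both peaks beyond the windows were not searched. Both motifs were searched on both strands, and TTCCTNGAA was found in 1.59% and TTCNNNGAA in 8.30% of all 32851 RefSeq windows. Windows overlapped by a peak held them in 1.24% and 6.40% of 2905 cases, against 1.62% and 8.48% of the 29946 windows without a peak. These shares are for the 300-base windows, which a peak need only touch. The sequence of the peaks themselves was not searched. Of the 9 genes 7 had a RefSeq window, 15 windows in all. A peak overlapped 2 of the 15, those of Bcl6 and Zbtb7b shown, and 8.84% of all windows; by gene this was 2 of 7, against 12.2% of the protein-coding genes with a window. The palindrome was in 3 of the 15, the third being that of Zbtb20 at 32 bases after the TSS. A match describes letters only, and its part in binding was not tested.

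Bcl6 had a single peak, over its own upstream TSS. It ran from 23988367 to 23989268 on chromosome 16, with its centre 35 bp and its summit 219 bp downstream of the TSS. It held 103 ChIP tags (exact Poisson 95% interval 84.1 to 125, counting error only), with 64.8-fold enrichment over input as the authors' peak caller gives it, a p-value score (−10 log10 p) of 307 and an empirical false discovery rate (FDR) of 2.02%. The peak was narrow and dense. Its width of 902 bp was above that of 9.95% of all peaks, while its 114 tags per kb ranked at 26 and its fold at 65 of 3878. Among the 2171 peaks within 1 kb of a TSS its fold ranked at 15, 3.20 times their median of 20.3-fold, and its tag density at 6. No other peak was called in the 23.8 kb of the gene or within 100 kb of it, so the downstream start with its 3 palindromes had no peak. The peak was listed for no other gene. DNA of the Bcl6 transgene was present in the ChIP and input cells alike, and tags from it that match exons of the endogenous gene cannot be told apart from those of the endogenous gene, in the tags, the fold or the ranks.

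Within 1 kb of a TSS, the peaks most like that of Bcl6 in fold, tags and width were those of Srbd1, Amdhd2 and Scfd2, at scaled distances of 0.586, 0.725 and 0.811 over 2171 peaks. The Srbd1 peak had 71.3-fold enrichment and 107 tags over 1084 bp. That of Amdhd2 had 56.9-fold and 77 tags over 891 bp, and that of Scfd2 75.5-fold and 125 tags over 1096 bp. Likeness was taken within the single pooled data set and not across samples.

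**Figure D1:**
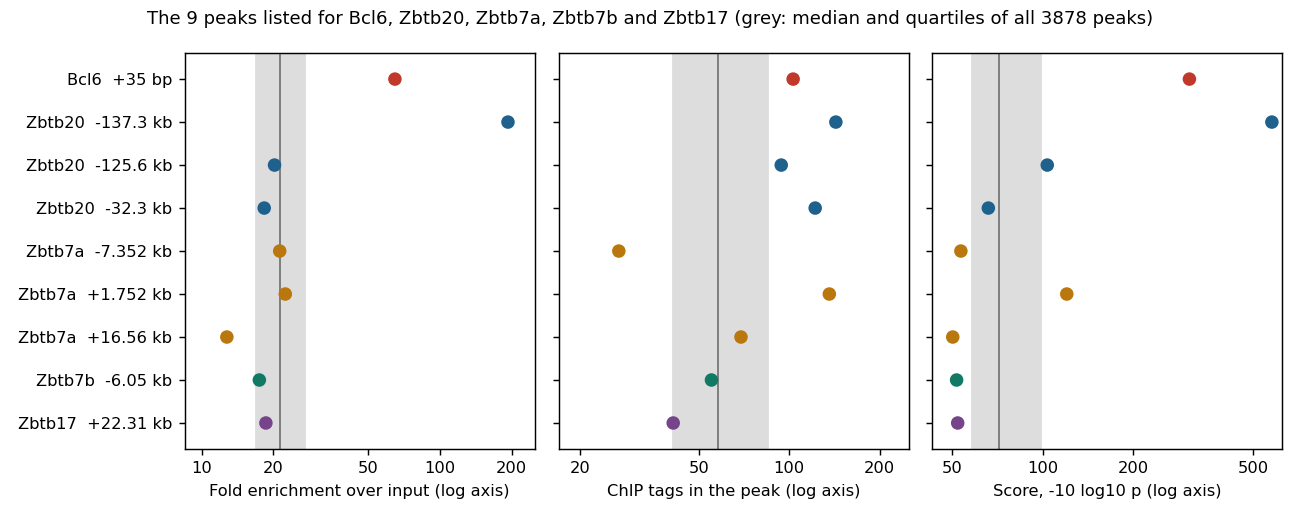
Fold enrichment over input, ChIP tags and p-value score (all on log axes) of the 9 peaks listed for Bcl6, Zbtb20, Zbtb7a, Zbtb7b and Zbtb17, with the distance of each from its listed TSS; the line and band are the median and quartiles of all 3878 peaks. The Bcl6 peak (64.8-fold) and the farthest Zbtb20 peak (193-fold) lie above the upper quartile of fold (27.2), and the others at or below 22.5-fold.

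Zbtb20 had the strongest peak of the 9 genes, and it was far from any start of the gene. This peak, from 42769819 to 42770910 on chromosome 16, lay 137 kb upstream of the listed TSS, with 143 tags (exact Poisson 95% interval 121 to 168), 193-fold enrichment and a score of 576. Its fold ranked at 4 of all 3878 peaks and at 3 of the 345 peaks over 50 kb from a TSS. Its FDR of 6.90% was the highest of the 9 peaks. That was usual for such scores, since 35 of the 36 peaks with a score above 500 had an FDR over 5%, and 38 peaks in all did.

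Zbtb20 also had 2 ordinary peaks. The nearer to the strong one, from 42781019 to 42783003, began 10.1 kb after it and had 94 tags and 20.2-fold enrichment. By fold the strong peak was 9.54 times higher. The weaker peak ranked at 247 of the 345 far peaks, whose median was 27.2-fold. The third, from 42874012 to 42876690, had 122 tags and 18.3-fold enrichment over 2679 bp, the widest of the 9 peaks. The list places it 32.3 kb upstream of the TSS. It nevertheless held the first base of the RefSeq gene, at 42875689, and its summit was 161 bp inside the gene. Zbtb20 therefore had a peak at its annotated 5′ end that the listed distance does not show. All 3 peaks were listed for Gap43 too, which encodes a growth cone protein, at 430 to 535 kb.

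Zbtb7a, which encodes a regulator of blood cell fate, had 3 peaks within 25.5 kb of chromosome 10. The strongest lay inside the gene, from 81136920 to 81139126 and centred 1752 bp downstream of the TSS, with 136 tags (exact Poisson 95% interval 114 to 161), 22.5-fold enrichment and a score of 120. It began past the promoter window, which no peak overlapped. A peak 7352 bp upstream had 27 tags, the fewest of the 9, and 21.3-fold enrichment, equal to the median of all peaks. The third was centred 16.6 kb downstream of the TSS and 608 bp beyond the 3′ end of the gene, over whose last 597 bp it reached. It had 69 tags, 12.8-fold enrichment, the lowest of the 9, and a score of 50.2, just above the cutoff of 50. Pias4, a SUMO ligase gene, was nearer to that peak (15.1 kb), and Map2k2, a MAP kinase kinase gene, was listed for the upstream peak at 23.0 kb.

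Zbtb7b, known as the factor that directs T cells to the CD4 lineage, had 1 peak, from 89393129 to 89394313 on chromosome 3. It had 55 tags (exact Poisson 95% interval 41.4 to 71.6), 17.5-fold enrichment and a score of 51.7. The list gives it 6050 bp upstream of the TSS, at 89387671. RefSeq has a second, upstream start at 89393378, and from this start the peak's centre lay 343 bp and its summit 362 bp upstream. Measured against the starts in the table of promoter windows, a choice made after seeing the data, 2 of the 9 peaks were within 1 kb of a TSS, those of Bcl6 and Zbtb7b, against 1 by the authors' list. That table holds a single Zbtb20 start, at 43247284, and so does not count the third Zbtb20 peak, which covers the first base of the RefSeq gene.

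Zbtb17, also called Miz1, a partner of Myc in repression, had 1 peak at the far end of its gene. It ran from 141466335 to 141467595 on chromosome 4, wholly inside the gene and 342 bp short of its 3′ end, with 41 tags (exact Poisson 95% interval 29.4 to 55.6), 18.6-fold enrichment and a score of 52.2. Its centre was 22.3 kb downstream of the listed TSS. The peak was also listed for Spen, which encodes a corepressor of Notch signalling and overlaps Zbtb17 in the annotation, at 71.6 kb.

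**Figure D2:**
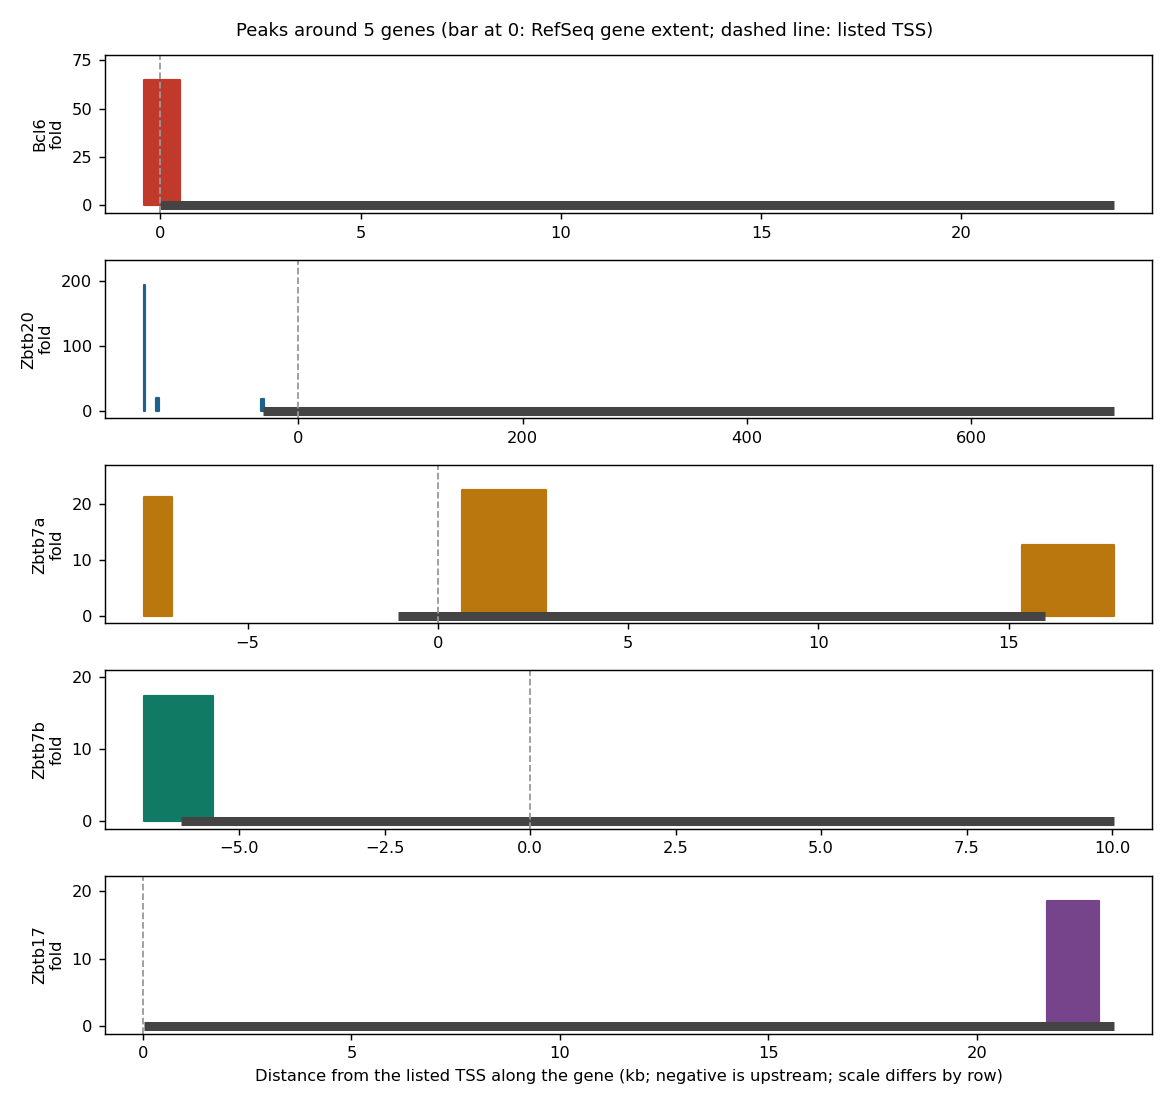
Position of the peaks along 5 genes, in kb from the listed TSS (dashed line, upstream negative), with fold enrichment as block height and the RefSeq gene as a bar at 0; the scale differs by row. The Bcl6 peak sits on the TSS, the third Zbtb20 peak and the Zbtb7b peak on the annotated 5′ end, and the Zbtb17 peak near the 3′ end.

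The strong and the ordinary peaks were far apart. Beside Bcl6 and the far Zbtb20 peak, the other 7 ranged from 12.8- to 22.5-fold. Of the 9, 3 were above the median fold of all peaks (21.3-fold) and 2 above the upper quartile. Tags were higher by comparison, with 6 of 9 above the median of 58 and 5 above the upper quartile of 85. By score, 4 peaks were above the upper quartile of 99.0 and 4 below the lower quartile of 58.1. The last were those of Zbtb7b and Zbtb17 and the outer peaks of Zbtb7a, which lay between 50.2 and 53.4. By distance from the listed TSS of its own gene, 1 of the 9 was within 1 kb, 1 at 1 to 5 kb, 5 at 5 to 50 kb and 2 beyond. By distance from the nearest listed TSS of any gene, the shares of all 3875 listed peaks were 56.0%, 10.9%, 24.1% and 8.90%. Of the 9, only the peak beyond the 3′ end of Zbtb7a had a nearer listed gene, Pias4 at 15.1 kb, which leaves its class the same.

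**Figure D3:**
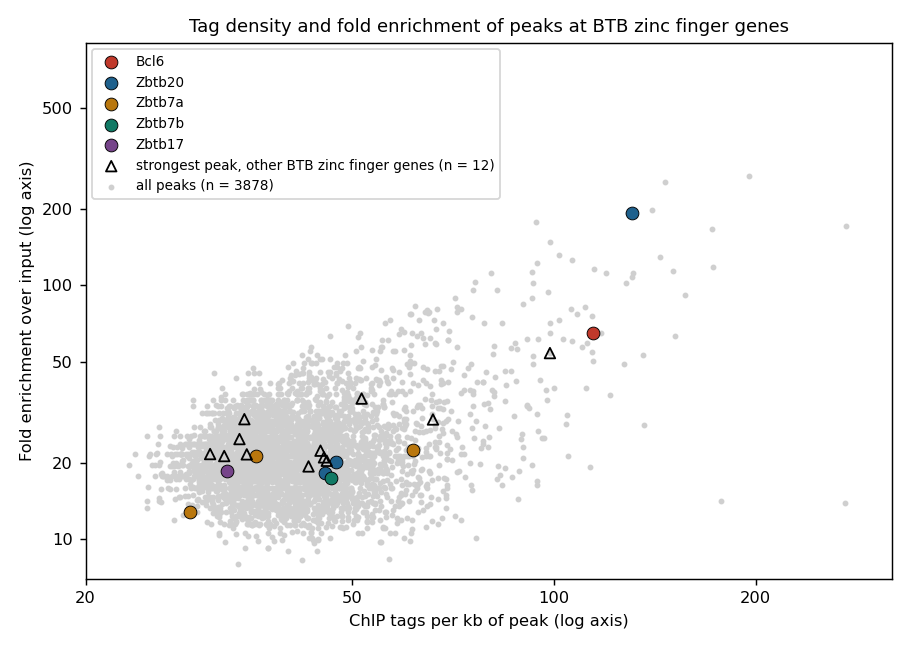
ChIP tags per kb of peak against fold enrichment (both log axes) for peaks of 5 named genes (circles), the strongest peak of each of 12 other BTB zinc finger genes (triangles) and all 3878 peaks (grey). The Bcl6 peak (114 tags per kb), the far Zbtb20 peak (131) and the Zbtb22 peak (98.6) stand clear of the rest of the family.

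The 4 genes without a listed peak differed in how near the next peak was. Zbtb32, a repressor of lymphocyte activation, was touched by one. A peak of 67 tags and 16.2-fold enrichment covered the last 468 bp of the gene, but it was listed only for Wbp7 (now Kmt2b), 471 bp upstream of that histone methyltransferase gene's TSS. Bcl6b, the closest relative of Bcl6, lay 7.03 kb from the nearest peak, which had 67 tags and 17.7-fold enrichment, was centred 83 bp from the TSS of the neighbouring 0610010K14Rik and was listed for that gene alone. Zbtb16, also called PLZF, a regulator of stem cells and innate-like lymphocytes, was 148 kb from the nearest peak (57 tags, 16.0-fold, at the promoter of Usp28). Zbtb18, a repressor needed for cortical neuron maturation, was 345 kb from its nearest (68 tags, 27.5-fold, at the promoter of Adss). No peak within 100 kb was the case for 2 of the 9 genes, Zbtb16 and Zbtb18, and for 54.7% of all protein-coding genes. At this depth the absence of a call is no proof that Bcl6 was not there, since the weakest peak of the data set held 20 tags.

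The room between neighbouring genes differed widely. It was measured between the nearest protein-coding genes on either side that do not overlap the gene. This stretch was 1413 kb around Zbtb20, 466 kb around Zbtb18, 463 kb around Bcl6, 292 kb around Zbtb16 and 140 kb around Zbtb17. It was 29.3 kb around Zbtb7a, 24.3 kb around Zbtb7b, 14.0 kb around Zbtb32 and 12.5 kb around Bcl6b. Genes that overlap one of the 9, such as Tigit at Zbtb20 and Spen at Zbtb17, were passed over. The list ties peaks to genes by their TSSs, so these stretches are not the space in which a peak could be listed. Their part in the number of listed peaks was not tested.

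A listed peak was found for 5 of the 9 genes (55.6%) and for 20.1% of the 21887 protein-coding genes (8.94% of all annotated genes). A peak within 1 kb of the listed TSS was found for 1 of the 9, Bcl6, and for 10.8% of all, a share near the background. At least 3 peaks were listed for 2 of the 9, Zbtb20 and Zbtb7a, and for 1.05% of all genes. The outer peaks of Zbtb7a had scores of 53.4 and 50.2, near the cutoff of 50, and the latter was nearer to Pias4. A peak over 50-fold was listed for 2, Zbtb20 and Bcl6, and for 0.877% of all genes. By the strongest listed peak, Zbtb20 ranked at 6 and Bcl6 at 109 of 4393 protein-coding genes with a peak, while Zbtb7a ranked at 2175, Zbtb17 at 3068 and Zbtb7b at 3369. The median strongest fold was 22.5 over the 5 genes and 22.3 over the 4393. The first base of the RefSeq gene lay inside a peak for Bcl6, Zbtb20 and Zbtb7b, 3 of the 7 with a known strand. This held for 10 of 35 such genes in the rest of the BTB zinc finger family and for 10.9% of 17492 protein-coding genes. The shares of the 9 genes describe a list chosen with earlier results in view and were not tested.

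The rest of the BTB zinc finger family, 39 genes, had a listed peak in 12 cases (30.8%), 7 of them within 1 kb of the TSS (17.9%). Zbtb22 led, with a peak of 54.1-fold, 145 tags and a score of 315 centred 112 bp upstream of its TSS, the only one of the 12 over 50-fold. Tapbp, an antigen-processing gene, was listed for the same peak at 3273 bp. Zbtb37 followed with 35.8-fold enrichment 5924 bp upstream and a peak of 265 tags over 4293 bp at 1711 bp. Peaks centred within 1 kb of the TSS were also those of Zbtb34 (21.6-fold), Zbtb1 (21.03-fold), Patz1 (20.4-fold), Zbtb45 (19.4-fold), Zbtb3 (17.7-fold) and Zbtb44 (17.4-fold). They were close to the median promoter peak of 20.3-fold. Zbtb44 had 3 peaks in all, and the strongest, 12.5 kb upstream, reached 22.3-fold. Zbtb3 had a further one of 21.7-fold 4094 bp upstream, which was centred 121 bp from the TSS of the RNA polymerase gene Polr2g.

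The remaining relatives had a peak far from their TSS. They were Hic2 (29.7-fold at 23.5 kb), Zbtb7c (29.6-fold at 81.5 kb), Zbtb43 (24.8-fold at 175 kb) and Zbtb8a (21.3-fold at 27.02 kb). Nearer genes were listed for the peaks of Hic2 (Rimbp3, 1.94 kb), Zbtb43 (Lmx1b, 3.12 kb) and Zbtb8a (Zbtb8os, 15.4 kb). A peak could also cover a relative's start without being listed for it. The Zbtb25 start lay under the 21.03-fold peak listed for its divergent neighbour Zbtb1, and the Zbtb11 start under a 24.8-fold peak of 192 tags listed for the ribosomal protein gene Rpl24. Of the 17 peaks of these relatives 9 were over 2 kb wide, against 3 of the 9 peaks of Bcl6, Zbtb20, Zbtb7a, Zbtb7b and Zbtb17 and 885 of all 3878.

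Genes with a BTB domain and Kelch repeats in place of zinc fingers, most of them adaptors of ubiquitin ligases, had a peak in 8 of 39 cases (20.5%), near the background of 20.1%, and 5 had one within 1 kb (12.8%). Klhl36 had the highest fold (33.5), 79 bp upstream of its TSS, then Klhl25 (25.5-fold at 92.2 kb) and, level with each other, Klhl8 and Enc1 (24.8-fold each). The median strongest fold was 22.0 over the 12 zinc finger relatives and 23.7 over the 8 Kelch genes, against 22.3 over all genes with a peak. The first base of the RefSeq gene lay inside a peak for 3 of the 32 Kelch genes with a known strand. No test between these lists was made.

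**Figure D4:**
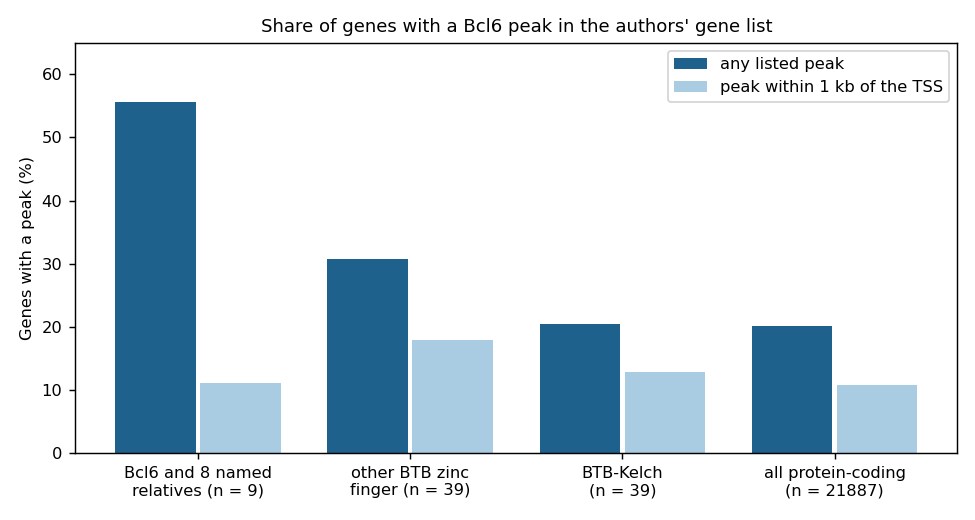
Percent of genes with any listed peak and with a peak within 1 kb of the TSS, for Bcl6 and its 8 named relatives, 39 other BTB zinc finger genes, 39 BTB-Kelch genes and all 21887 protein-coding genes. Any listed peak was found for 55.6%, 30.8%, 20.5% and 20.1% of them, a peak within 1 kb for 11.1%, 17.9%, 12.8% and 10.8%.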

How the data were processed

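The data were 6 ChIP-seq and input libraries, 3 of each. The submitters' processing notes name Bowtie and mm10, its version being not given in the sources used here. Per the file headers, MACS 1.4.2 compared pooled ChIP with pooled input at a cutoff of 1e-05 on the p-value, allowing 1 tag per position, which kept 11718276 ChIP tags (20.6%) and 5048582 input tags (39.4%). The tag counts are the authors' counts per peak under this limit of 1 tag per position. The fold enrichment is the ratio to local input background that the authors' peak caller deposited. The score was deposited as −10 log10 p; its column name had been overwritten, and it was identified by column order and its minimum of 50.03. The empirical FDR per peak was deposited in percent. Genes and distances from the peak centre to a TSS were deposited by the authors as output of GREAT 3.0.0, per the file headers, with domains reaching up to 1000000 bp.

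Peak N of the list was taken as row N of the table. With this numbering 95.5% of 4579 pairs gave a TSS within 1000 bp of a RefSeq start of the named gene, against 0.439% with the rows shifted by 1. Symbols were matched to RefSeq (98.5% of 5801 pairs). All 9 genes were in that table under their current symbols, and no older symbol of theirs was in the gene list. Values were read with pandas 2.3.3, and the motif search was tested on simulated sequences.

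The 9 genes, the lists and the motifs were chosen with earlier results of these data known, so nothing was tested. Named were all 9 genes, the 12 relatives and the 3 BTB-Kelch genes of the highest fold (a tie made it 4), every gene listed for a peak of the 9, and the 3 promoter peaks nearest to that of Bcl6 in log2 fold, tags and width, each scaled by its SD. Genes named for a peak that was listed elsewhere or for a peak of a relative were chosen after their values were seen. Peak intervals cover counting error only, since the libraries were pooled and variation between replicates cannot be measured.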

Additional observations from a re-analysis of the deposited data

How the results depend on the processing

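No replicate could be left out and no count test was possible, because the authors pooled the libraries. No paired analysis was possible because the values come from pooled libraries with no column per replicate. With only peaks of a score at or above the median, 3 of the 9 genes kept a peak (Bcl6, Zbtb20 and Zbtb7a) with 4 peaks in all, and 7 of the zinc finger relatives and 4 of the BTB-Kelch genes had one, against 10.8% of protein-coding genes. With only peaks within 5 kb of the listed TSS, 2 genes (Bcl6 and Zbtb7a) had 2 peaks, against 12.8% of genes. With peaks at most 2 kb wide, 7 of the 39 relatives had one, against 16.6% of protein-coding genes, and the same 5 of the 9 genes had 6 peaks. A window of 2 kb around the TSS, and the starts of the promoter window table in place of the listed ones, each gave 2 peaks at a TSS in place of 1; that table lacks the RefSeq gene start of Zbtb20 that the peak from 42874012 covers. Against all annotated genes the background share was 8.94%. An FDR of at most 5% removed the 193-fold peak of Zbtb20 and left 8 peaks at the same 5 genes, against 20.0% of protein-coding genes. Limiting distance to 50 kb left 7 peaks (17.1% of protein-coding genes), and giving each peak to its nearest listed gene left 8 (14.8%), both at the same 5 genes. The peaks of Zbtb7b and Zbtb17 and the outer peaks of Zbtb7a lay near the score cutoff. Whether they would be called at another depth was not tested.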
